A study of Mus musculus with 18 samples.

Results

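The genes described here are 10 regulators and markers of the epithelial-mesenchymal transition (EMT): the epithelial surface genes Cdh1 and Epcam, the mesenchymal genes Cdh2, Vim and Fn1, and the transcription factors Snai1, Snai2, Zeb1, Zeb2 and Twist1. They were picked by symbol, by a rule that uses no measured value but was written with earlier results of these data known, and all 10 were found among the 24421 genes of the count table. Cdh2 and Snai2 had too few counts to be tested, so 8 members were tested among 13507 genes.

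RNA was measured in 4T1, a mouse mammary carcinoma cell line (strain BALB/cfC3H, genotype wild type in the labels), and in 4T1R1 and 4T1R2, resistant populations that were derived from it independently by repeated exposure to 17-DMAG and expansion of the survivors. 17-DMAG is an inhibitor of the chaperone HSP90. Each of the 3 populations was sequenced untreated and after 17-DMAG, with 3 replicate libraries in each of the 6 groups, which the series text calls biological replicates. For the treated cultures the sample records give 1.5 µM for 48 h, whereas the series text gives 2 h, so the length of exposure behind the 17-DMAG comparisons is not settled. The selection is likewise given as 1 µg/ml for 24 h in the series text and as 3 rounds of 1.5 µM for 48 h in the sample records. No transgene or deletion is named for any group, and survivors of the selection were grown out in medium without the drug. Each resistant population is 1 selected population, so its differences from 4T1 apply to that selection. The 4T1R1 libraries carry identifiers of another number series than all other libraries; what that series stands for is not stated, and it cannot be told apart from the population.

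During EMT, epithelial cells loosen the junctions that tie them to their neighbours and gain mesenchymal traits such as motility and matrix deposition. Cdh1 encodes E-cadherin, the calcium-dependent adhesion molecule of adherens junctions, and the Snail, Zeb and Twist factors are known as its transcriptional repressors. In mammary carcinoma the program is often partial, with epithelial and mesenchymal genes read from the same cells.

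The Snail and Zeb factors are known to bind E-boxes of the form CAGGTG. Promoters of 5 members are described here, from the RefSeq promoters for GRCm38.p6. None was listed there for Cdh1, Fn1 and Snai2, and those of Zeb1 and Cdh2 are not reported here. The motif was searched on both strands (CAGGTG, or CACCTG where the site lies on the other strand) from 250 bases before to 50 after the start. It was found in the promoters of Epcam and Snai1, and not in those of Vim, Twist1 and Zeb2, which has 4 listed starts. For comparison, 6634 of all 32817 promoters of that length (20.2%) held it. Shown are the 250 bases before the start, on the plus strand and with the motif in capitals, of Twist1 and Epcam, which had the greatest differences past the threshold between untreated populations, and of Snai1, the member that was higher in both resistant populations.
Epcam, chr17:87635729-87635978: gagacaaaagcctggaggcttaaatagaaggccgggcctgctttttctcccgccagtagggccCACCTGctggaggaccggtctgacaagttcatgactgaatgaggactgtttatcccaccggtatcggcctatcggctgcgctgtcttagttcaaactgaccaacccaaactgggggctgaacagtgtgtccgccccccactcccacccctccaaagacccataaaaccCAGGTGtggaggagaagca
Snai1, chr2:167537945-167538194: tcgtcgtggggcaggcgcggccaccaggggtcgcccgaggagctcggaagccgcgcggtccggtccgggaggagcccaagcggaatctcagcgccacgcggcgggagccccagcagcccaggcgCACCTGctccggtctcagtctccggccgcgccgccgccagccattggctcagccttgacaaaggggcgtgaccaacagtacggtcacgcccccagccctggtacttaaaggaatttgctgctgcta
Twist1, chr12:33957421-33957670: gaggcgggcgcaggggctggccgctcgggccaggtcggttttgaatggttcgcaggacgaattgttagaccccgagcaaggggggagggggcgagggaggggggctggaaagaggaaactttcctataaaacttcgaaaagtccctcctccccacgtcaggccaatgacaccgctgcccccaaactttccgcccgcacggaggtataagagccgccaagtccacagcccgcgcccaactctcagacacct
The motif began at -187 and -19 from the start in Epcam and at -126 in Snai1. These are matches of letters, and binding was not measured.

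Libraries held between 23354461 and 55094630 counts. The first 2 replicates of treated 4T1 showed differences smaller than sampling noise gave elsewhere (chi-square per gene of 1.1, against 2.04 to 2.22 in the 17 other replicate pairs) and were counted as 1 sample, which left n = 2 in that group and n = 3 in the others. The labelled cell type was checked against 10 mammary epithelial markers: the keratins Krt8, Krt18 and Krt7 had at least 8221 counts in every library and Krt19 had 786 to 2595. Of the basal keratins, Krt14 was read at 76 to 415 counts and Krt5 at no more than 2, while Esr1 had 173 to 588 and the luminal progenitor factor Elf5 0 to 9. Cdh1 and Epcam, the remaining markers of this list, are members themselves. The summed level of the 10 markers was between 76916 and 78034 normalized counts in untreated 4T1, between 51848 and 54307 in untreated 4T1R1 and between 59975 and 61160 in untreated 4T1R2. Of 10 fibroblast markers, Lum was at 0 in every library and Dcn, Thy1 and Col3a1 at no more than 2 counts. The fibroblast sum, nearly all of it Pdgfra, was between 712 and 800 in untreated 4T1, 859 and 916 in 4T1R1, and 927 and 1053 in 4T1R2, and it lay between 421 and 441 in 17-DMAG-treated 4T1. The sum of 10 leukocyte markers, mostly Cd14 and Cd68, was between 389 and 453 in untreated 4T1, 759 and 855 in 4T1R1, and 910 and 985 in 4T1R2, with Ptprc at no more than 19 counts. Endothelial markers summed to no more than 50.7. The part of these sums in the differences of the members was not tested. Because these are bulk samples, fewer cells of a type and less RNA per cell cannot be told apart.

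In untreated 4T1 the epithelial and the mesenchymal markers were read side by side. Levels between genes are compared here as normalized counts (counts scaled to a common library size) per kb of exon. Vim, the intermediate filament protein of mesenchymal cells, was the highest at 17752 ± 198 per kb (SD, n = 3), followed by Fn1, which encodes the matrix protein fibronectin, at 5379 ± 146 and Cdh1 at 2435 ± 39.0. Epcam, an epithelial cell adhesion molecule, stood at 693 ± 14.3 per kb. The transcription factors were lower, with Twist1 at 216 ± 8.79, Snai1 at 183 ± 22.6, Zeb2 at 89.4 ± 7.13 and Zeb1 at 1.67 ± 0.667 per kb. Twist1 and Snai1 overlapped (207 to 224 against 166 to 209), and every other pair of neighbours in this order was separated. With the length of the longest transcript in place of all exons, Zeb2 came to 195 per kb and stood above Snai1 (183).

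Neither the cadherin of mesenchymal cells nor Slug was detected in any group beyond stray counts. Cdh2, which encodes N-cadherin, had 0 counts in 17 of the 18 libraries and 2 counts in replicate 3 of 17-DMAG-treated 4T1R1. Snai2, which encodes Slug, had 0 counts in all 18 libraries. Against the 3 counts that a reading of 0 allows in a library, Cdh2 in untreated 4T1 was at least 6378-fold lower per kb than Cdh1, and Snai2 at least 120-fold lower than Snai1. Most low counts were even numbers, and if each fragment gave 2 counts, so that a reading of 0 allows 6 counts, these limits become 3189-fold and 60.1-fold. They cover counting error only. Zeb1 was read at 0 to 26 counts per library, so that its fold changes carry standard errors above 0.5 on the log2 scale.

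**Figure D1:**
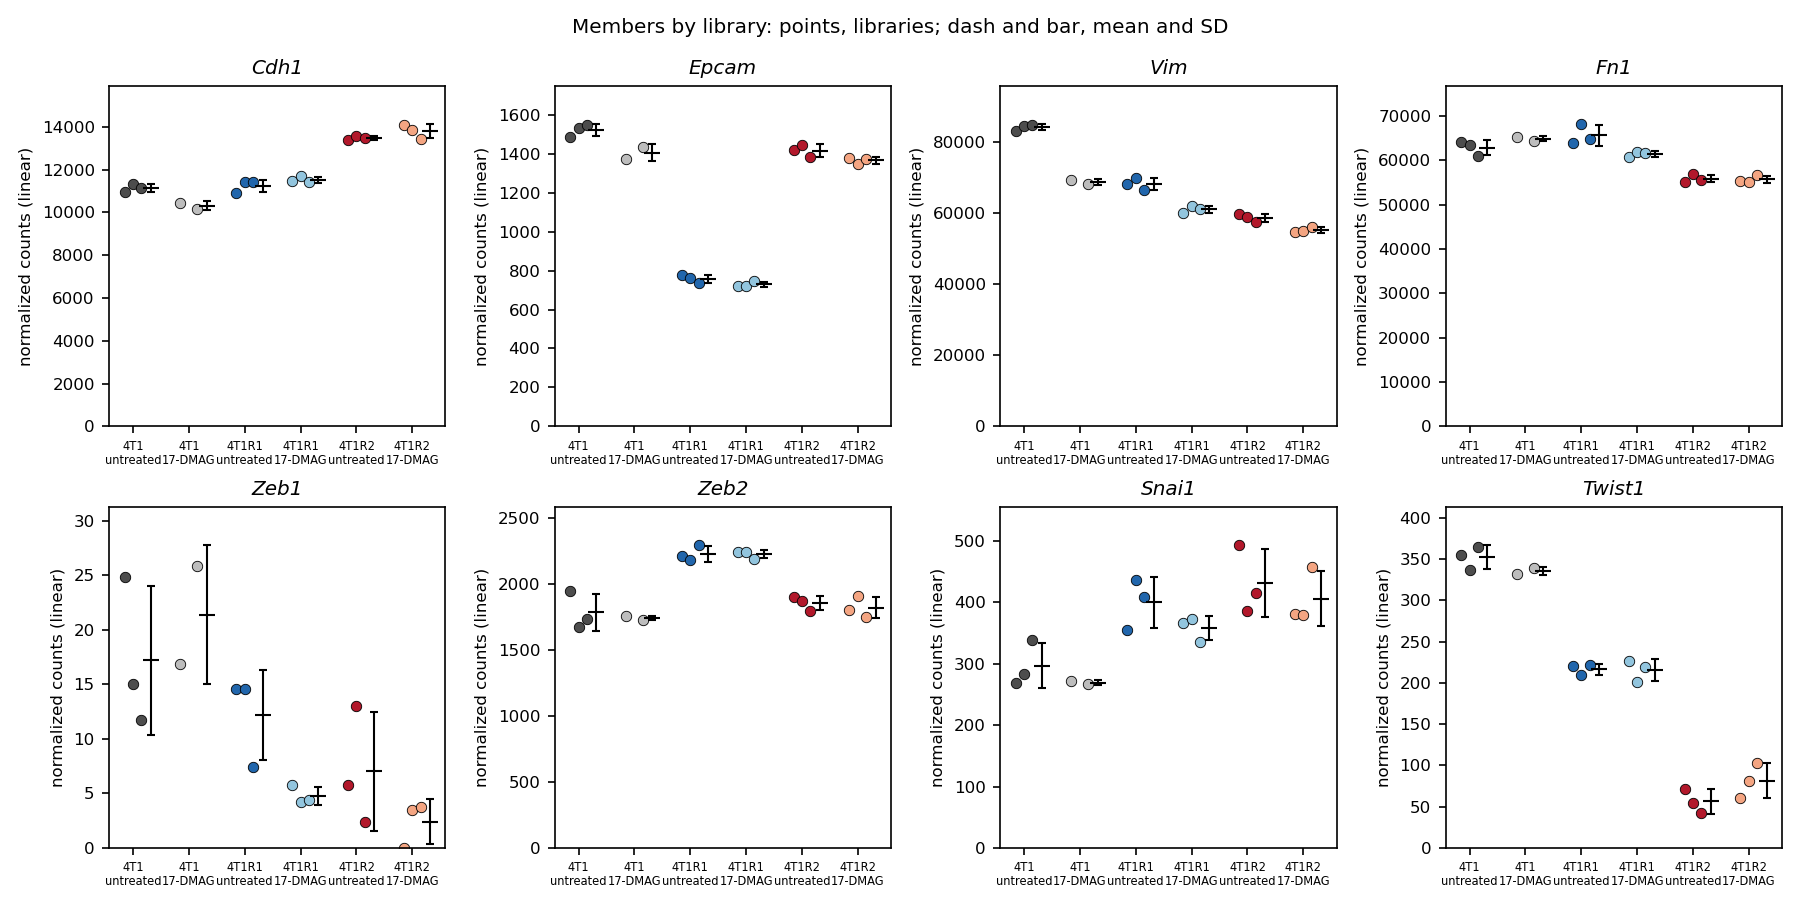
Normalized counts (linear axis from 0) of the 8 tested members in the 17 samples; points are samples, and the dash with its bar gives the mean and SD of each group. Epcam is low only in both 4T1R1 groups, Twist1 falls from 4T1 (337 to 365 untreated) through 4T1R1 to 4T1R2, and Vim is highest in untreated 4T1.

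The comparison of untreated populations asks how the resistant cells differ from the cells they came from. In 4T1R1, Epcam was 2.01-fold lower than in 4T1, Twist1 and Vim were lower, and Snai1, Zeb2 and, by a small amount, Fn1 were higher. In 4T1R2, Twist1 was 6.16-fold lower, Vim and Fn1 were lower, and Cdh1 and Snai1 were higher. Of the 8 members tested, 3 were higher and 3 lower in 4T1R1, where 25.2% of all genes tested were higher and 27.5% lower. In 4T1R2, 2 members were higher and 3 lower, against 25.6% and 26.9% of all genes. The libraries of the groups compared did not overlap for 5 members in 4T1R1 and for 6 in 4T1R2, against 56.5% and 57.2% of all genes tested. All tests are edgeR's quasi-likelihood test with p-values adjusted by Benjamini-Hochberg over the 13507 genes, and errors of a log2 fold change (log2FC) are standard errors. Both resistant populations are compared with the same 4T1 libraries.

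Epithelial members. Cdh1 (chromosome 8, 106603351 to 106670246, plus strand, GRCm38) was read at 10968, 11324 and 11124 normalized counts in untreated 4T1, at 10921, 11405 and 11406 in 4T1R1, and at 13371, 13576 and 13480 in 4T1R2. The 4T1R2 libraries stood above all others and the other groups overlapped. Cdh1 was thus higher in 4T1R2 than in 4T1 by a log2FC of 0.28 ± 0.0273 (adjusted p = 2.41e-11) and higher than in 4T1R1 by 0.26 (adjusted p = 2.57e-10), while the difference between 4T1R1 and 4T1 was 0.014 ± 0.0273 (adjusted p = 0.705). Epcam (chromosome 17, 87635979 to 87651129, plus strand) was read at 1486, 1531 and 1547 in untreated 4T1, at 776, 762 and 735 in 4T1R1, and at 1418, 1446 and 1381 in 4T1R2. The 3 groups did not overlap, and 4T1R1 stood far below the others. The log2FC of Epcam was -1.01 ± 0.0517 in 4T1R1 (adjusted p = 5.07e-20) and -0.10 ± 0.0492 in 4T1R2, which did not pass (adjusted p = 0.072). Between the resistant populations Epcam was 1.87-fold higher in 4T1R2 (adjusted p = 1.21e-17). Against 4T1, then, Epcam passed the threshold in 4T1R1 and Cdh1 in 4T1R2.

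Mesenchymal members. Vim (chromosome 2, 13573927 to 13582826, plus strand) was read at 83141, 84513 and 84936 normalized counts in untreated 4T1, at 68113, 69789 and 66459 in 4T1R1, and at 59779, 58871 and 57432 in 4T1R2. The groups did not overlap, with 4T1 the highest and 4T1R2 the lowest. Its log2FC was -0.31 ± 0.0222 in 4T1R1 (adjusted p = 3.31e-15) and -0.52 ± 0.0222 in 4T1R2 (adjusted p = 1.21e-22), a percent change of -19.1% and -30.3%. Vim was also lower in 4T1R2 than in 4T1R1, by a log2FC of -0.21 (adjusted p = 2.1e-10). Fn1 (chromosome 1, 71585520 to 71653200, minus strand) was read at 64118, 63523 and 60908 in untreated 4T1, at 63955, 68259 and 64748 in 4T1R1, and at 55243, 56903 and 55623 in 4T1R2. All 4T1R2 libraries lay below the rest, whereas 4T1 and 4T1R1 overlapped. Fn1 was lower in 4T1R2 by -0.17 ± 0.0238 (adjusted p = 1.09e-07) and higher in 4T1R1 by 0.063 ± 0.0238 (adjusted p = 0.0242). The 4T1R1 difference of Fn1 rested on single libraries: it was 0.041 without 4T1 untreated replicate 3 (adjusted p = 0.203) and 0.034 without 4T1R1 untreated replicate 2 (adjusted p = 0.225). With only the groups compared in the fit it was 0.073 (adjusted p = 0.0512). Apol7d, which is antisense to Fn1, had no more than 22 counts in a library.

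Snail and Zeb factors. Snai1 (chromosome 2, 167538195 to 167542814, plus strand), which encodes Snail, was read at 269, 283 and 338 normalized counts in untreated 4T1, at 355, 437 and 409 in 4T1R1, and at 493, 386 and 416 in 4T1R2. Every library of both resistant populations lay above the 4T1 libraries, and the resistant populations overlapped each other. Snai1 was higher by a log2FC of 0.43 ± 0.104 in 4T1R1 (adjusted p = 0.000595) and 0.55 ± 0.104 in 4T1R2 (adjusted p = 2.43e-05), and the difference between the resistant populations was 0.12 ± 0.10 (adjusted p = 0.377). Zeb2 (chromosome 2, 44983632 to 45117395, minus strand) was read at 1942, 1669 and 1736 in untreated 4T1, at 2207, 2177 and 2290 in 4T1R1, and at 1896, 1867 and 1796 in 4T1R2. The 4T1R1 libraries stood above all others. Zeb2 was 1.25-fold higher in 4T1R1 than in 4T1 (log2FC 0.32 ± 0.0472, adjusted p = 2.59e-07) and lower in 4T1R2 than in 4T1R1 by -0.26 ± 0.0475 (adjusted p = 1.9e-05). Between 4T1R2 and 4T1 its log2FC was 0.057 ± 0.0484 (adjusted p = 0.34), which became 0.12 without 4T1 untreated replicate 1 (adjusted p = 0.0384). Zeb2os, which is antisense to Zeb2, had 1 to 22 counts in a library. Zeb1, on chromosome 18, was read at 24.9, 15 and 11.7 in untreated 4T1, at 14.6, 14.6 and 7.43 in 4T1R1, and at 5.75, 13 and 2.34 in 4T1R2. These groups overlapped, and its log2FC was -0.49 ± 0.508 in 4T1R1 (adjusted p = 0.429) and -1.31 ± 0.591 in 4T1R2 (adjusted p = 0.0503). The 4T1R2 value turned on single libraries: it was -1.53 without 4T1 untreated replicate 3 (adjusted p = 0.0351) and -2.00 without 4T1R2 untreated replicate 2 (adjusted p = 0.0144), and on the other side -0.949 without 4T1 untreated replicate 1 (adjusted p = 0.234) and -0.918 without 4T1R2 untreated replicate 3 (adjusted p = 0.214). At a log2FC of -1.31 it also passed with 18 separate libraries (adjusted p = 0.0435) and with only the groups compared (adjusted p = 0.0419).

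Twist1. Twist1 (chromosome 12, 33957671 to 33959829, plus strand) encodes a basic helix-loop-helix factor of mesoderm development. It was read at 355, 337 and 365 normalized counts in untreated 4T1, at 220, 209 and 221 in 4T1R1, and at 71.9, 54.8 and 42.1 in 4T1R2. The 3 populations did not overlap, and 4T1R2 stood far below the others. Twist1 was 1.63-fold lower in 4T1R1 (log2FC -0.70 ± 0.122, adjusted p = 5.44e-06) and 6.16-fold lower in 4T1R2 (log2FC -2.62 ± 0.164, adjusted p = 2.64e-18) than in 4T1. It was also 3.79-fold lower in 4T1R2 than in 4T1R1 (log2FC -1.92, adjusted p = 5.62e-13). Per kb of exon, Twist1 and Snai1 overlapped in untreated 4T1, whereas Snai1 stood above Twist1 in both resistant populations. Twist1 stood at 133 and Snai1 at 247 in 4T1R1, and at 34.6 and 266 in 4T1R2. In both resistant populations, then, Snail RNA was higher and Twist1 RNA lower than in 4T1, and Vim was lower.

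Directly between the resistant populations, 2 members (Cdh1 and Epcam) were higher and 4 (Vim, Fn1, Zeb2 and Twist1) lower in 4T1R2 than in 4T1R1. Among all genes, 19.7% were higher and 19% lower in this comparison. Groups did not overlap for these 6 members, against 46.1% of all genes tested. Both epithelial members were thus higher, and 4 of the 6 tested mesenchymal genes and transcription factors lower, in 4T1R2, with Snai1 and Zeb1 not past the threshold.

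The comparison of treated with untreated cells asks what 17-DMAG does to these genes in each population. No member was higher at the threshold in any population, and the differences that passed were small. In 4T1, Vim and Cdh1 were lower, in 4T1R1 Vim and Fn1, and in 4T1R2 Vim. The share of members lower was 2 of 8 in 4T1, where 18.4% of all genes were higher and 17.9% lower. It was 2 of 8 in 4T1R1, against 13.9% of all genes higher and 14.3% lower, and 1 of 8 in 4T1R2, against 6.18% higher and 4.35% lower. With library totals alone as scaling, the median log2FC of all genes in 4T1 moved from 0.001 to -0.11, and the calls from 2490 higher and 2423 lower to 1193 and 4322. The same scaling gave 2356 higher and 1316 lower genes in 4T1R1 and 365 and 1146 in 4T1R2. Under it 5 members were lower in 4T1 (Cdh1, Vim, Fn1, Epcam at -0.23 and Zeb2 at -0.15) and 1 each in 4T1R1 and 4T1R2, and none was higher.

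Vim was the member lower after 17-DMAG in all 3 populations. After treatment it was read at 69425 and 68234 normalized counts in 4T1, at 60176, 61904 and 61050 in 4T1R1, and at 54711, 55061 and 56237 in 4T1R2. Each treated group lay below its untreated group without overlap. The log2FC was -0.29 ± 0.0248 in 4T1 (adjusted p = 9.61e-13), -0.16 ± 0.0222 in 4T1R1 (adjusted p = 5e-07) and -0.085 ± 0.0223 in 4T1R2 (adjusted p = 0.00876), a percent change of -18.2%, -10.4% and -5.72%. The 4T1R2 value did not pass without 4T1R2 17-DMAG replicate 1 (-0.077, adjusted p = 0.0604) or without 4T1R2 untreated replicate 1 (-0.072, adjusted p = 0.0617). Relative to the response of 4T1, the response of Vim was less negative by 0.13 ± 0.0333 in 4T1R1 (adjusted p = 0.00341) and by 0.21 ± 0.0333 in 4T1R2 (adjusted p = 9.04e-06). With library totals the Vim response in 4T1 was -0.41 and these differences were 0.28 and 0.28 (adjusted p = 8.46e-08 and 1.34e-07).

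Cdh1 was read at 10452 and 10154 normalized counts in treated 4T1, at 11453, 11691 and 11421 in treated 4T1R1, and at 14104, 13861 and 13447 in treated 4T1R2. Treated 4T1 lay below untreated 4T1, treated 4T1R1 lay just above its untreated libraries, and the 4T1R2 groups overlapped. Its log2FC was -0.11 ± 0.0306 in 4T1 (adjusted p = 0.00319), 0.035 ± 0.0273 in 4T1R1 (adjusted p = 0.372) and 0.035 ± 0.0271 in 4T1R2 (adjusted p = 0.478). The response differed from that of 4T1 by 0.15 ± 0.041 in 4T1R1 (adjusted p = 0.00833) and 0.15 ± 0.0408 in 4T1R2 (adjusted p = 0.00845). Without 17-DMAG-treated 4T1 replicate 3 these Cdh1 values were of similar size and did not pass, at -0.096 (adjusted p = 0.0738), 0.13 (adjusted p = 0.078) and 0.13 (adjusted p = 0.0669). That leaves 1 treated 4T1 sample, whose spread is assumed to be that of the other groups. With library totals the Cdh1 response in 4T1 was -0.23 and the differences were 0.30 in 4T1R1 and 0.22 in 4T1R2 (adjusted p = 1.5e-06 and 0.000257).

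Fn1 was read at 65399 and 64477 normalized counts in treated 4T1, at 60774, 61875 and 61745 in treated 4T1R1, and at 55398, 55248 and 56678 in treated 4T1R2. The treated 4T1R1 libraries all lay below the untreated ones. Its log2FC was -0.095 ± 0.0238 in 4T1R1 (adjusted p = 0.00209), 0.047 ± 0.0266 in 4T1 (adjusted p = 0.172) and -0.0038 ± 0.0238 in 4T1R2 (adjusted p = 0.95). The 4T1R1 response was lower than that of 4T1 by -0.14 ± 0.0357 (adjusted p = 0.00326). With library totals as scaling, the 4T1R1 value of Fn1 was -0.061 (adjusted p = 0.0647), its 4T1 value -0.069 (adjusted p = 0.0461), and the difference of the responses 0.0075 (adjusted p = 0.91).

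The other members showed no 17-DMAG response past the threshold. Epcam was read at 1374 and 1435 in treated 4T1, at 720, 722 and 745 in treated 4T1R1, and at 1379, 1345 and 1371 in treated 4T1R2, with a log2FC between -0.12 and -0.052. In 4T1 and 4T1R2 its treated libraries lay below the untreated ones, and in 4T1R1 they overlapped. In 4T1 the log2FC was -0.12 ± 0.0542 (adjusted p = 0.0905), and it passed at -0.13 (adjusted p = 0.028) when all 18 libraries were kept separate. Twist1 was read at 332 and 339 in treated 4T1, at 227, 201 and 219 in treated 4T1R1, and at 60.2, 81.4 and 103 in treated 4T1R2. The treated and untreated 4T1R2 libraries overlapped, and the log2FC of 0.51 ± 0.183 there did not pass (adjusted p = 0.0651). It passed without 4T1R2 17-DMAG replicate 1 (0.68, adjusted p = 0.015) or without 4T1R2 untreated replicate 1 (0.75, adjusted p = 0.0173). The difference of this Twist1 response from that of 4T1 was 0.58 ± 0.224 (adjusted p = 0.0663), and without the same libraries 0.75 (adjusted p = 0.0138) and 0.83 (adjusted p = 0.0152). Snai1 was read at 272 and 267 in treated 4T1, at 366, 373 and 336 in treated 4T1R1, and at 381, 379 and 458 in treated 4T1R2, and its log2FC lay between -0.16 and -0.098. Zeb2 was read at 1753 and 1727 in treated 4T1, at 2240, 2243 and 2186 in treated 4T1R1, and at 1799, 1908 and 1750 in treated 4T1R2. These libraries overlapped the untreated ones, and its log2FC lay between -0.034 and -0.0011. Zeb1 was read at 5.75, 4.23 and 4.43 in treated 4T1R1, below the untreated libraries, with a log2FC of -1.31 ± 0.652 (adjusted p = 0.116). Its log2FC was 0.30 ± 0.518 in 4T1 and -1.44 ± 0.831 in 4T1R2.

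Differences of response from 4T1 passed for 3 of the 8 members in 4T1R1 (Cdh1 and Vim higher, Fn1 lower), where 9.16% of all genes were higher and 9.08% lower. In 4T1R2 they passed for 2 (Cdh1 and Vim, both higher), where 9.62% of all genes were higher and 8.16% lower. With library totals as scaling the calls over all genes were 3536 higher and 419 lower in 4T1R1 and 2091 and 632 in 4T1R2. Both differences share the 4T1 response.

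**Figure D2:**
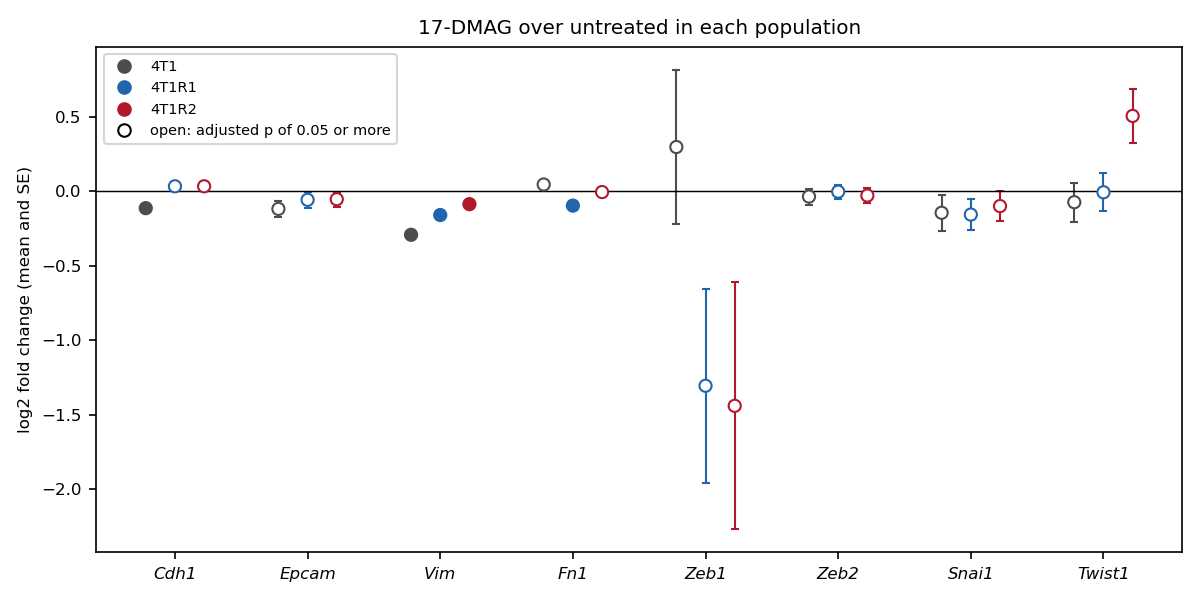
Fitted log2 fold change of each tested member after 17-DMAG in 4T1, 4T1R1 and 4T1R2, with bars of 1 standard error; open points did not pass an adjusted p of 0.05. Filled points are Vim in all 3 populations (-0.29, -0.16 and -0.085), Cdh1 in 4T1 (-0.11) and Fn1 in 4T1R1 (-0.095).

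The ratio of Vim to Cdh1 counts within a library needs no scaling between libraries, and it was taken as a description of the balance between a mesenchymal and an epithelial gene. It was 7.58, 7.46 and 7.64 in untreated 4T1, 6.24, 6.12 and 5.83 in untreated 4T1R1, and 4.47, 4.34 and 4.26 in untreated 4T1R2. After 17-DMAG it was 6.64, 6.64 and 6.72 in 4T1, 5.25, 5.30 and 5.35 in 4T1R1, and 3.88, 3.97 and 4.18 in 4T1R2. The 6 groups did not overlap in this ratio, and each treated group lay below its untreated group. The ratio was not tested on its own, and it shows unequal change of the 2 genes rather than the change of either. It describes Cdh1 and not epithelial genes in general, since Epcam did not follow Cdh1. Against untreated 4T1, the log2FC in untreated 4T1R1 was -1.007 for Epcam and -0.306 for Vim. In untreated 4T1R2 it was -0.105 for Epcam and -0.521 for Vim.

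**Figure D3:**
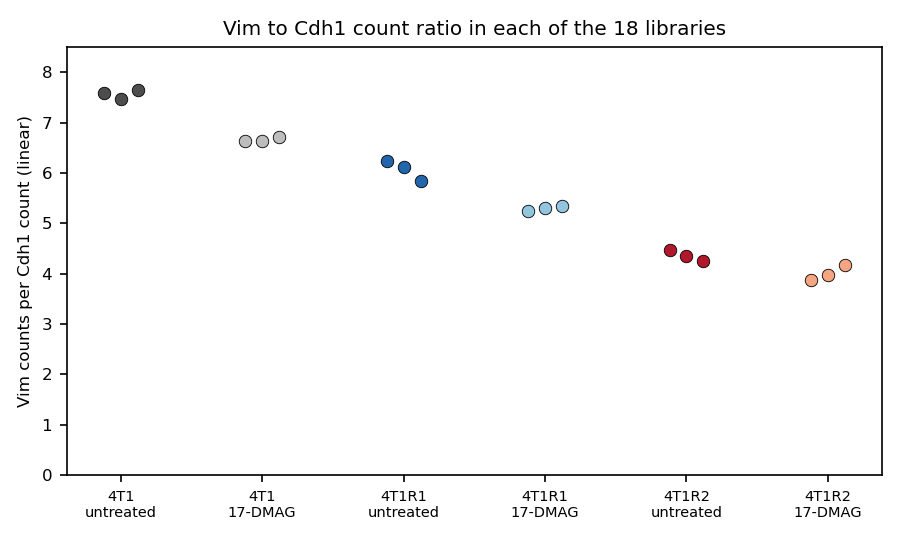
Counts of Vim per count of Cdh1 (linear axis from 0) in each of the 18 libraries, by group. Values run from 7.64 in untreated 4T1 down to 3.88 in 17-DMAG-treated 4T1R2, and the 6 groups occupy separate ranges.

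Wider lists of EMT genes were set beside the members, with their counts read against the shares of all genes given above. Of 45 tested epithelial genes (junction proteins, keratins and epithelial factors), 15 were higher and 19 lower in 4T1R1 than in 4T1, with a median log2FC of -0.098 against 0.008 over all genes. In 4T1R2, 17 were higher and 18 lower, with a median of -0.078. Movement was thus in both directions. The keratins Krt8, Krt18, Krt7 and Krt19 were lower in both resistant populations. Their log2FC was -0.534, -0.796, -0.727 and -0.303 in 4T1R1, and -0.416, -0.674, -0.421 and -0.396 in 4T1R2. The basal keratin Krt14 was higher in both (0.588 and 1.362). The epithelial ETS factor Ehf had no count in untreated 4T1 and 1421 ± 30.7 and 1807 ± 180 normalized counts in 4T1R1 and 4T1R2, at least 461-fold and 587-fold higher when set against 3 counts per library, or 231-fold and 293-fold against 6. The tight junction gene Tjp3 was 7.79-fold and 8.67-fold higher. On the other side, the claudin Cldn4 was 4.62-fold lower in 4T1R1 and the epithelial splicing regulator Esrp1 4.80-fold lower in 4T1R2. Both were lower in the other resistant population too, Cldn4 in 4T1R2 (log2FC -1.728) and Esrp1 in 4T1R1 (-1.943). Between the resistant populations, 18 epithelial genes were higher and 5 lower in 4T1R2 (40% and 11.1% of the list), among them the plakophilin Pkp1, 4.59-fold higher, and Cldn7, 2.18-fold higher. Dsg2, a desmosomal cadherin, and Ddr1, a collagen receptor, were 1.28-fold and 1.24-fold lower there.

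Of 40 tested mesenchymal genes, 13 were higher and 13 lower in 4T1R1, and 11 higher and 13 lower in 4T1R2. The protease inhibitor Serpine2 was read at 26.3 ± 1.46 normalized counts in untreated 4T1, 911 ± 34.6 in 4T1R1 and 563 ± 6.99 in 4T1R2, or 34.4-fold and 21.3-fold higher. The integrin subunit Itgb3 was 2.59-fold higher in 4T1R1 and the tropomyosin Tpm2 3.16-fold higher in 4T1R2. Itgb3 was also higher in 4T1R2 (log2FC 0.589) and Tpm2 in 4T1R1 (0.610). Ctgf, which encodes a matricellular protein, was 2.59-fold and 2.09-fold lower. The matrix gene Sparc was 2.49-fold lower in 4T1R2 and also lower in 4T1R1 (log2FC -0.659). The integrin Itgb1 was 1.72-fold lower in 4T1R1 and also lower in 4T1R2 (log2FC -0.730). Directly between the resistant populations 7 were higher and 14 lower in 4T1R2, with Col6a1 2.41-fold and Itgb3 1.72-fold lower and Tpm2 2.07-fold and S100a4 1.44-fold higher.

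Of 20 other tested transcription factors linked to EMT, 6 were higher and 5 lower in 4T1R1 and 4 higher and 5 lower in 4T1R2. Foxc2 was 1.25-fold and 1.42-fold higher and the E-protein Tcf4 1.48-fold and 1.35-fold lower. Fosl1 (1.24-fold higher) and Yy1 (1.20-fold lower) followed in 4T1R1, and Foxc1 (1.10-fold higher) and Ets1 (1.18-fold lower) in 4T1R2. Directly between the resistant populations, 4 were higher and 4 lower in 4T1R2, among them Yy1 (1.25-fold) and Sox9 (1.21-fold) higher and Fosl1 (1.33-fold) and Foxm1 (1.30-fold) lower. Of 31 genes for partners, corepressors and degradation factors of the Snail, Zeb and Twist proteins, 4 were higher and 15 lower in 4T1R1, and 6 higher and 13 lower in 4T1R2. The histone deacetylase Hdac1 was 1.23-fold and 1.19-fold higher. The histone methyltransferase Suv39h1 and the deubiquitinase Usp27x were 1.50-fold and 1.45-fold lower in 4T1R1. The kinases Pak1 and Lats2 were 1.88-fold and 1.50-fold lower in 4T1R2 and also lower in 4T1R1 (log2FC -0.438 and -0.401). Between the resistant populations 8 of this list were higher and 5 lower in 4T1R2.

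After 17-DMAG, 17 of 45 epithelial genes were lower and 6 higher in 4T1, 23 lower and 2 higher in 4T1R1, and 9 lower and 2 higher in 4T1R2. With library totals as scaling these counts were 24 and 3, 18 and 4, and 14 and 1. Over all 13507 genes that scaling gave 4322 lower and 1193 higher in 4T1. It gave 1316 and 2356 in 4T1R1, and 1146 and 365 in 4T1R2. Cldn4 was 2.62-fold lower in 4T1 and 1.75-fold lower in 4T1R1, Ehf 1.86-fold lower in 4T1R1, and the endocytic adaptor Epn3 2.38-fold lower in 4T1 and 1.55-fold lower in 4T1R2. Ehf was also lower in 4T1R2 (log2FC -0.405) and Epn3 in 4T1R1 (-0.489), while the log2FC of -0.306 of Cldn4 in 4T1R2 did not pass. The ETS factor Elf3 was 1.42-fold higher in 4T1 but lower in 4T1R1 (log2FC -0.386). In 4T1R2 its log2FC of -0.169 did not pass. Of 40 mesenchymal genes, 9 were higher and 9 lower in 4T1 (7 and 14 with library totals), 6 and 9 in 4T1R1 (7 and 7), and 6 and 1 in 4T1R2 (4 and 2). Cyr61, a matricellular gene, was 1.63-fold higher in 4T1 and 1.25-fold higher in 4T1R1 and 1.17-fold lower in 4T1R2. Mmp3 was 1.42-fold lower in 4T1 and Itgb3 1.56-fold lower in 4T1R1. Mmp3 was also lower in 4T1R1 (log2FC -0.219) and Itgb3 in 4T1 (-0.372). Neither passed in 4T1R2 (-0.062 for Mmp3 and -0.052 for Itgb3).

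Among the 20 other transcription factors, 11 were lower and 2 higher after 17-DMAG in 4T1 (12 and 0 with library totals). In 4T1R1 10 were lower and 2 higher (6 and 2), and in 4T1R2 3 were lower and 1 higher (4 and 0). Sox9 fell from 3768 ± 33.0 to 1530 ± 96.4 normalized counts in 4T1, or 2.47-fold, and was 1.28-fold lower in 4T1R1 and 1.21-fold lower in 4T1R2. Foxc2 was 1.94-fold lower in 4T1, and Sox4 1.49-fold lower in 4T1R1 and 1.18-fold lower in 4T1R2. Sox4 was also lower in 4T1, where its change was the greatest (log2FC -0.723), and Foxc2 was also lower in 4T1R1 (-0.259). In 4T1R2 the log2FC of -0.191 of Foxc2 did not pass. Hmga2 was 1.12-fold and 1.16-fold higher in 4T1 and 4T1R1, and its log2FC of 0.082 in 4T1R2 did not pass. Of the 31 partners, 6 were higher and 12 lower in 4T1, 7 and 4 in 4T1R1, and 5 and 1 in 4T1R2. With library totals these were 4 and 22, 7 and 2, and 4 and 4, to be read against the calls over all genes under that scaling. Lats2, a Hippo pathway kinase that acts on Snail, was 1.88-fold, 1.28-fold and 1.35-fold higher in 4T1, 4T1R1 and 4T1R2, and the ubiquitin ligase Siah2 1.87-fold, 1.48-fold and 1.28-fold higher.

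**Figure D4:**
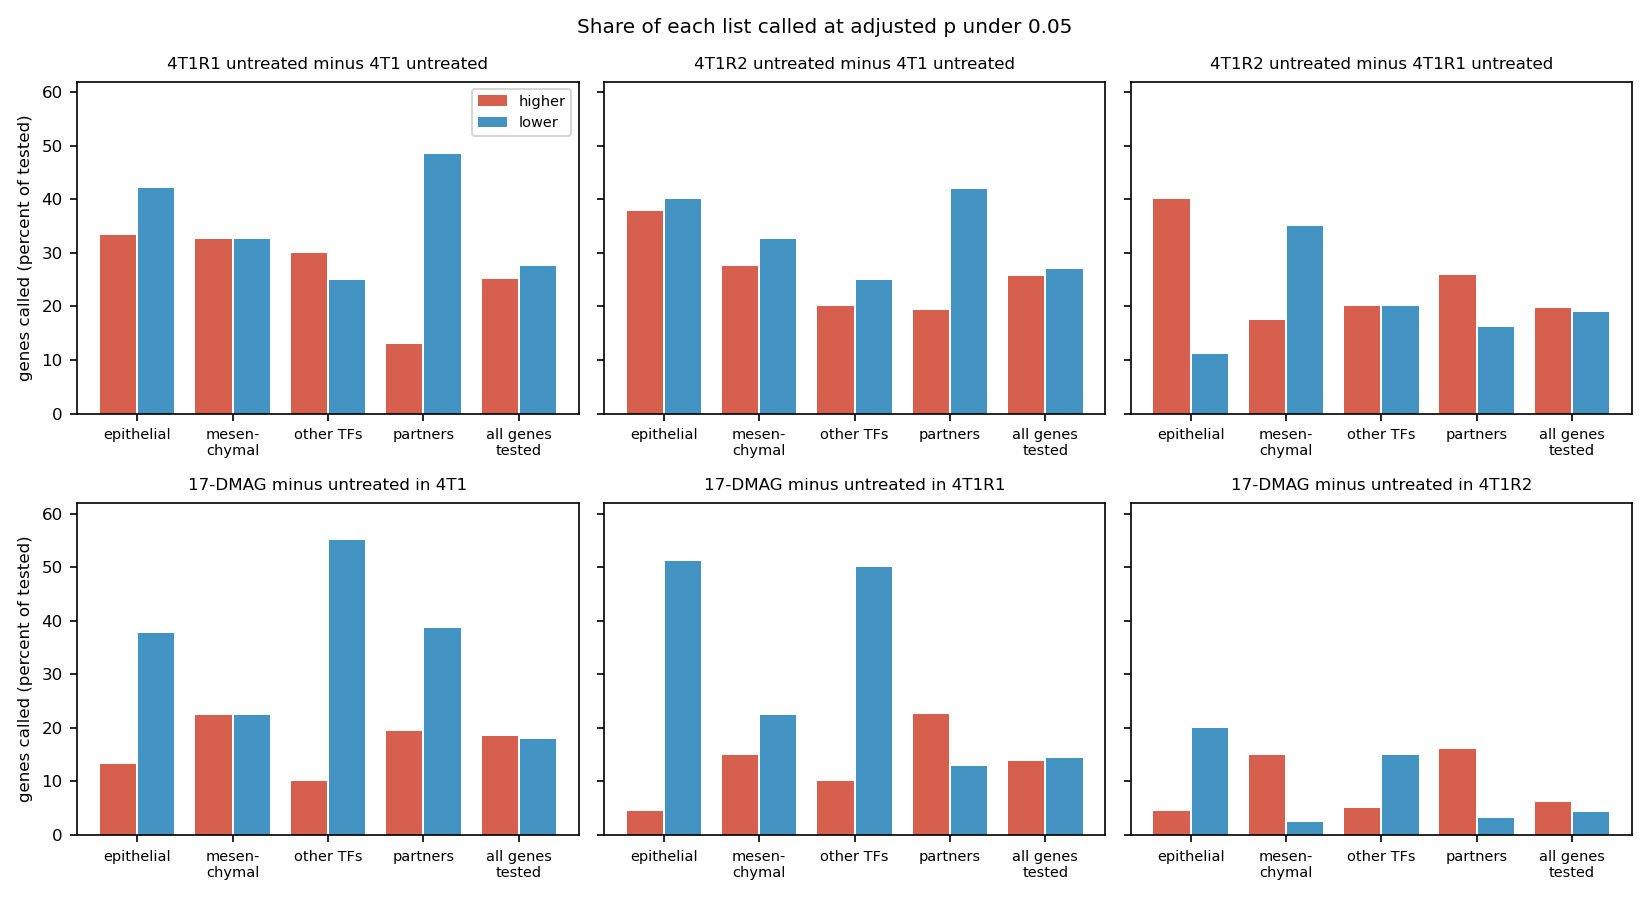
Percent of tested genes called higher (red) or lower (blue) at an adjusted p under 0.05 in 4 lists and among all genes tested, for the 6 comparisons; TFs are transcription factors. The tallest bars are other transcription factors lower after 17-DMAG in 4T1 (55%) and epithelial genes lower after 17-DMAG in 4T1R1 (51.1%), against 17.9% and 14.3% of all genes.

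Across the 17 samples, the pattern of each member was compared with 10330 genes by Pearson r of log2(normalized count + 1). It is a description only, since the samples of a group share their population and treatment. The members did not share one pattern. Twist1 ran against Cdh1 (r = -0.935) and with Fn1 (0.853) and Vim (0.796), while Epcam ran against Zeb2 (-0.940) and had an r of 0.280 with Cdh1. Snai1 ran with Cdh1 (0.696) and against Twist1 (-0.691). Among the genes most like a member were Mbnl2 for Cdh1 (0.965), Pik3r2 for Vim (0.982), Lama5 for Fn1 (0.982), C920025E04Rik for Zeb2 (0.958), Ndel1 for Snai1 (0.946) and Soga1 for Twist1 (0.978).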

How the data were processed

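Libraries were stranded and made from rRNA-depleted total RNA. The submitters' processing notes name bcl2fastq 2.20, STAR, and featureCounts from Subread 1.6.2, and the paper's methods name alignment to mm10/GRCm38. The deposited values were raw read counts per gene symbol, with no normalization by the authors; use of strand in counting is not given in the sources used here. Between 65.6% and 70.8% of values from 1 to 12 were even.

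Counts were tested with edgeR 4.0.16 (R 4.3.3) by quasi-likelihood, after filterByExpr and TMM scaling, with 17 samples of all 6 groups in 1 fit of group means. Calls were made at a Benjamini-Hochberg adjusted p under 0.05 over 13507 genes. The common biological coefficient of variation was 0.0376. Normalized counts were counts divided by TMM-scaled library size and multiplied by its mean. Gene positions and exon lengths came from GENCODE vM21. Replicates are called biological by the series text; if cultures were not separate, p-values measure technical spread only.

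From each list, at most 2 genes in each direction per comparison were named, those with the greatest fitted change past the threshold, a higher group averaging 100 normalized counts or more, and separated libraries; likeness used members and genes averaging at least 100 normalized counts and gives the closest of the 3 genes kept per member. Some genes that these rules name are not reported here. The members and lists were chosen with earlier results of these data known. The alternatives were RLE scaling, library totals, no filter on low counts, DESeq2 1.42.0, a fit of only the groups under comparison, a block for the replicate number, 18 separate libraries, no Rn45s, each library left out and, chosen after seeing the data, 6 counts in place of 3 as the limit of a reading of 0.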

Additional observations from a re-analysis of the deposited data

Results flagged for a closer look

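Differences of response to 17-DMAG between a resistant population and 4T1 passed edgeR's quasi-likelihood test of the interaction itself in 5 instances. For Cdh1 the difference was 0.147 ± 0.041 on the log2 scale in 4T1R1 (adjusted p = 0.00833) and 0.147 ± 0.0408 in 4T1R2 (adjusted p = 0.00845). For Vim it was 0.132 ± 0.0333 in 4T1R1 (adjusted p = 0.00341) and 0.206 ± 0.0333 in 4T1R2 (adjusted p = 9.04e-06). For Fn1 it was -0.142 ± 0.0357 in 4T1R1 (adjusted p = 0.00326). With library totals as scaling, the Fn1 difference changed sign and did not pass. Without 17-DMAG-treated 4T1 replicate 3 the Cdh1 differences kept their size (0.13 in each) but, as given above, did not pass. That fit leaves 1 treated 4T1 sample. The 4T1 response enters all 5 differences, and it rests on 2 treated samples. Over all genes tested, 9.16% were higher and 9.08% lower for 4T1R1, and 9.62% and 8.16% for 4T1R2.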

How the results depend on the processing

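RLE scaling, the removal of Rn45s and the replicate block each kept the direction and the side of the threshold of all 72 values (8 counts of members called and 64 log2FC). DESeq2 kept those of 68, and gave no adjusted p for 4 Zeb1 values, which kept their direction. With the block, 6 members were called in 4T1R1 against 4T1 and 5 in 4T1R2 against 4T1; the replicate numbers did not pair the samples (correlations of deviations of -0.0264 to 0.0446 over 17 pairs). With library totals, the members called after 17-DMAG were 5 in 4T1 and 1 in 4T1R1, and signs turned for Fn1 in 4T1 (-0.069), Zeb2 (0.033) and Twist1 (0.029) in 4T1R1, Cdh1 in 4T1R2 (-0.012), and for the differences of response of Fn1 (0.0075 in 4T1R1, 0.018 in 4T1R2) and Snai1 (0.14 in 4T1R1). The median of all genes moved to -0.11 for 17-DMAG in 4T1 and to 0.15 for the difference of response in 4T1R1. Without the filter on low counts, 2 members were called after 17-DMAG in 4T1R2 and Fn1 there was 0.0012. With only the groups compared, Zeb2 after 17-DMAG in 4T1R1 was 0.0032, Fn1 in 4T1R1 against 4T1 did not pass (adjusted p = 0.0512) and Zeb1 in 4T1R2 against 4T1 passed (adjusted p = 0.0419). With 18 separate libraries, Epcam after 17-DMAG in 4T1 (adjusted p = 0.028), Zeb1 in 4T1R2 against 4T1 (adjusted p = 0.0435) and the difference of response of Twist1 in 4T1R2 (adjusted p = 0.04) passed as well. Leaving out 1 library gave 1 to 2 members called after 17-DMAG in 4T1 and 1 to 3 for the difference of response in 4T1R2, the lower count in each without 17-DMAG-treated 4T1 replicate 3. Signs turned in these ranges over the left-out libraries: in 4T1 Zeb1 -0.023 to 0.66 and Zeb2 -0.078 to 0.032; in 4T1R1 Zeb2 -0.016 to 0.020 and Twist1 -0.046 to 0.043; in 4T1R2 Fn1 -0.016 to 0.0089 and Snai1 -0.19 to 0.015; for the difference of response in 4T1R1 Zeb2 -0.033 to 0.077 and Snai1 -0.12 to 0.054; and in 4T1R2 Zeb2 -0.059 to 0.051 and Snai1 -0.062 to 0.16. The cause of these changes was not tested. Zeb1 had low counts, and Cdh2 and Snai2 had too few to be tested.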
